A study of Mus musculus with 4 samples.

Results

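The genes described here code for the core of transforming growth factor-β (TGF-β) signalling, namely the ligands Tgfb1 and Tgfb3, the receptors Tgfbr1, Tgfbr2 and Tgfbr3, the signal transducers Smad2, Smad3 and Smad4, and the inhibitors Smad7 and Skil. They were found by gene name among the array features that are not controls, which gave 16 probes of 10 genes out of 41174 probes in all. Their RNA was compared between CD8αβ+ IELs, the T cells that lie between the epithelial cells of the small intestine, and CD8αβ+ SPLs, T cells of the same surface type from the spleen. Both came from untreated male wild-type C57BL/6 mice 8 to 12 weeks old, were sorted by CD45, CD3, CD8α, CD8β and TCRβ, and were lysed without culture or stimulation. There were 2 samples per group, each pooled from several mice, and every sample was read on a separate Agilent array with 1 dye.

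TGF-β is made as a latent complex, from which integrins release the active ligand after furin has cut the precursor. The ligand binds the type II receptor Tgfbr2, which recruits and activates the kinase Tgfbr1, whereas Tgfbr3 (betaglycan) presents ligand to them. Tgfbr1 phosphorylates Smad2 and Smad3, which enter the nucleus with Smad4, and Smad7 and SnoN (the product of Skil) restrain the pathway at the receptor and at the DNA. In the gut epithelium, TGF-β is known for inducing CD103 (Itgae) on CD8 T cells, the integrin that holds them to E-cadherin of epithelial cells.

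Levels are given as the log2 of the intensity relative to the 75th percentile of the same array. Levels of different probes cannot be compared with each other. The 75th percentile ranged from 311.9 units on IEL 1 to 604.7 units on SPL 2. The arrays lay on 2 slides, with IEL 1 and SPL 2 on slide 1 and with IEL 2 and SPL 1 on slide 2. Across 27911 tested probes, IEL 2 was closer to SPL 1 (Pearson's r = 0.992) and to SPL 2 (r = 0.973) than to IEL 1 (r = 0.946). This goes against its label. SPL 1 was likewise closer to IEL 2 than to SPL 2 (r = 0.986). The differences of the members are therefore also given within each slide and without IEL 2. The arrays of slide 2 were thus the most alike of all, and the fit without IEL 2 keeps SPL 1. Defining genes of CD8 T cells were well measured on every array, with Cd8b1 at 7.40 and 7.98 on the IEL arrays and at 8.05 and 8.11 on the SPL arrays. Signals of genes that mark other cells were present as well. The summed level of 8 enterocyte markers was 24.2, 4.62, 1.82 and 0.396 times the 75th percentile on IEL 1, IEL 2, SPL 1 and SPL 2, and that of 8 macrophage markers was 1.07, 10.4, 13.4 and 5.52 times, in the same order.

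The parts of the transcripts that were read by 3 of the probes are shown, since they lie in coding sequence of a ligand, a receptor and an inhibitor and state what the signals below stand for. Each is written 5′ to 3′ in the sense of the transcript, with its place on mm9, and capitals mark the longest run of bases shared with a probe of any other gene on the array on either strand.
Tgfb1, A_51_P390715, chr7:26489877-26489936, plus strand: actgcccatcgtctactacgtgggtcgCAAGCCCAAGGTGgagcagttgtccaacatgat
Tgfbr2, A_52_P251403, chr9:116019196-116019255, minus strand: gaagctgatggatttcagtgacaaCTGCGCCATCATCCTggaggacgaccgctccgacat
Skil, A_52_P597461, chr3:31016390-31016449, plus strand: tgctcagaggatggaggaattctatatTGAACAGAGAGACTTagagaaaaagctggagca
These shared runs were 13, 15 and 15 of 60 bases long, and among all 16 probes the longest shared run was 16 bases, in a probe of Smad3.

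Among the members, Tgfb3 and Skil read higher on both IEL arrays than on both SPL arrays. So did dim probes of Tgfbr1, Tgfbr2 and Tgfbr3, by fitted log2 differences of 0.63, 0.26 and 0.72. The fitted log2 differences of Tgfb1, the first Tgfbr2 probe and the Smad genes lay between -0.36 and 0.04. No member passed the adjusted test, nor did any other probe (limma, Benjamini-Hochberg over 27911 probes, 0% called, lowest adjusted p = 0.634). At an unadjusted p under 0.05, Tgfb3 was higher in IELs and 0 members were lower, against 4.63% and 1.10% of all tested probes. All 16 probes could be tested, and 15 of them were well above background on all 4 arrays, while 1 Tgfbr2 probe met the filter only through the SPL arrays. Both IEL arrays lay above both SPL arrays for 6 of the 16 probes and below them for 4, against 24.4% and 24.6% of all tested probes, which for 16 probes is about 4 each. The 4 include that Tgfbr2 probe, which has only a bound on IEL 1 and also enters the counts of signs and the medians that follow. The sign was the same on both slides for 13 of 16 probes, against 71.7% of all. The median log2 difference was -0.12 over the members and -0.001 over all tested probes, and the median absolute difference was 0.26 and 0.32. With 2 against 2 samples, an exact two-sided permutation test cannot go below p = 0.33. The limma p-values rest on the spread between these pooled samples, moderated by that of all tested probes, and not on that between mice.

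**Figure D1:**
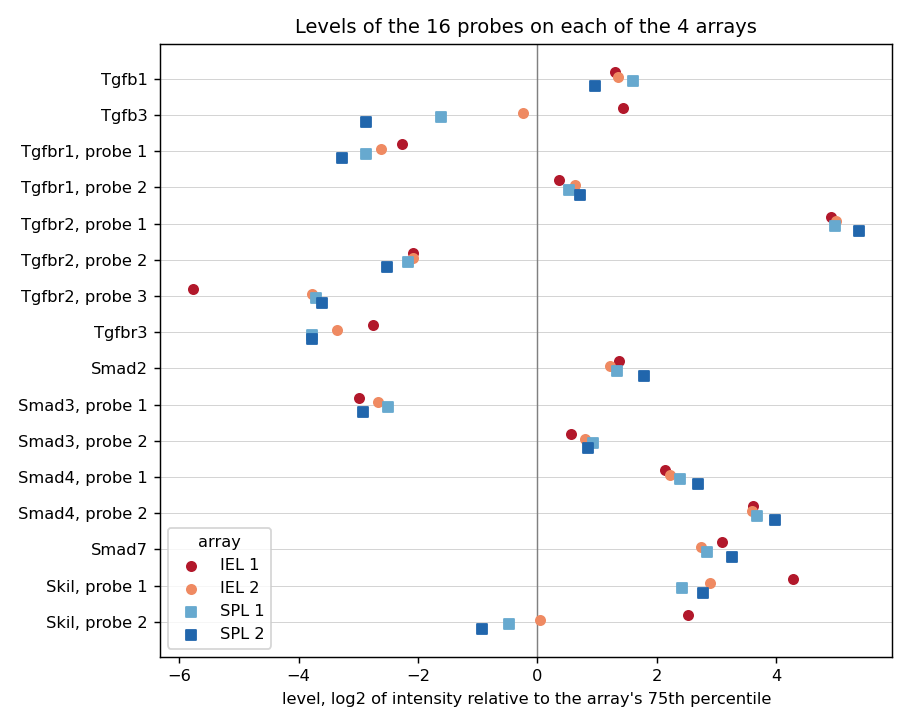
Level of each of the 16 probes (log2 of intensity relative to the 75th percentile of its array) on the 2 IEL arrays (circles) and the 2 SPL arrays (squares), numbered within a gene by probe name. The Tgfb3 points spread from -2.88 to 1.44, whereas the 4 points of most Smad probes lie close together.

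Tgfb3 codes for one of the TGF-β ligands and had the largest fitted difference of the 16 probes. Its probe, A_51_P124748 (chr12:87397804-87397863 on mm9, minus strand), read 843.2 units on IEL 1, 366.6 on IEL 2, 156.7 on SPL 1 and 82.2 on SPL 2. These intensities corresponded to levels of 1.44, -0.25, -1.61 and -2.88. The arrays thus fell in one order, with both IEL arrays above both SPL arrays and a gap within each group as well. The fitted log2 difference was 2.84 with a standard error of 0.75 and a 95% interval from 0.83 to 4.85, or 7.17-fold higher in IELs (limma, adjusted p = 0.634). This was the 218th of 27911 differences counted from the highest. The log2 difference was 4.32 on slide 1 (19.9-fold) and 1.37 on slide 2 (2.58-fold). It was 0.96 after normexp background correction.

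The arrays stood in the same order for each of 8 enterocyte markers as for Tgfb3. These 8 markers were thus higher on both IEL arrays, with a median log2 difference of 5.601 on slide 1 and 1.37 on slide 2. So were 7 of 8 Paneth and goblet cell markers, with medians of 6.25 and 1.34. Of all tested probes, 24.4% were higher on both IEL arrays. On SPL 2, 7 of the 8 enterocyte and 6 of the 8 Paneth and goblet cell markers were well above background. The former figure of each pair thus includes probes with only a bound there. Those probes, of Krt20, Itln1 and Muc2, met the filter only through the IEL arrays, where they were higher, so the counts rest in part on them. For Krt8, a keratin of simple epithelia, levels were 2.73, -0.51, -1.99 and -4.64 on IEL 1, IEL 2, SPL 1 and SPL 2. For Cdh1, which codes for E-cadherin, they were 2.47, 0.70, -0.57 and -4.18, and for the adhesion molecule Epcam they were -1.34, -3.41, -3.82 and -4.13. The cells had been sorted for CD45, which epithelial cells lack. The T cell effector genes Gzma, Gzmb, Fasl and Ifng put the arrays in the same order as Tgfb3 too, while Prf1 did not. The part of epithelial RNA in the Tgfb3 difference was not tested. The genes most like Tgfb3 over the 4 arrays were Gsta1, Spsb1 and Cela1, whose levels, after each profile was centred on its mean, deviated from that of Tgfb3 by a root mean square of 0.061, 0.086 and 0.087 log2 units. Gsta1 was dim, with levels of -3.01, -4.73, -5.93 and -7.27 on IEL 1, IEL 2, SPL 1 and SPL 2. On SPL 2 it lay below Krt20 (-6.59) and Muc2 (-6.67), which were not well above background there. In all, 90 probes came within 0.25 log2 units of Tgfb3.

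Tgfb1 codes for the ligand that most leukocytes make, and its level did not separate the groups. Its probe, the first of the sequences above, was spotted 10 times per array, of which 8 to 10 spots were used, with a coefficient of variation between 2.73% and 5.72%. The levels were 1.30 and 1.35 on the IEL arrays, and 1.61 and 0.97 on the SPL arrays. Both IEL arrays thus lay between the SPL arrays. The fitted difference was 0.04 with a 95% interval from -0.80 to 0.87 (limma, adjusted p = 0.967). It was 0.34 on slide 1 and -0.26 on slide 2. Platelets and macrophages are known sources of Tgfb1. They lack CD3 and TCRβ, for which the cells had been sorted, but their markers were measured and differed between the arrays. The platelet gene Pf4 was not well above background on IEL 1 and had levels of -0.61 on IEL 2, -0.20 on SPL 1 and 0.56 on SPL 2. Of 6 platelet markers, 5 were lower on both IEL arrays (24.6% of all tested probes), while Gp1bb was higher (24.4% of all). Only 3 of the 6 were well above background on IEL 1, against all of them on the other arrays. Pf4, Ppbp and Gp9 thus met the filter only through the SPL arrays and have only a bound on IEL 1. Of 8 macrophage markers, 6 were well above background on IEL 1 and 8 on each other array, and their median log2 difference was -0.32 on slide 2. The part of these cells in the Tgfb1 signal was not tested. Of 5 B cell, 6 neutrophil, 6 erythroid and 5 NK cell markers, 4, 2, 3 and 4 were well above background on IEL 1, against all of them on the other arrays except for 1 erythroid marker on IEL 2. On slide 2, their median log2 differences were -0.36, -0.41, -0.42 and -0.11. Of 6 stromal and 5 endothelial markers, 2 and 4 were tested, with median fitted differences of 0.73 and -0.15. For 5 markers of CD4 and regulatory T cells the median was 0.96, with Foxp3 not well above background on IEL 1 and between 7.03 and 19.6 units over the arrays. In such bulk samples, fewer cells of a type and less RNA per cell cannot be told apart.

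**Figure D2:**
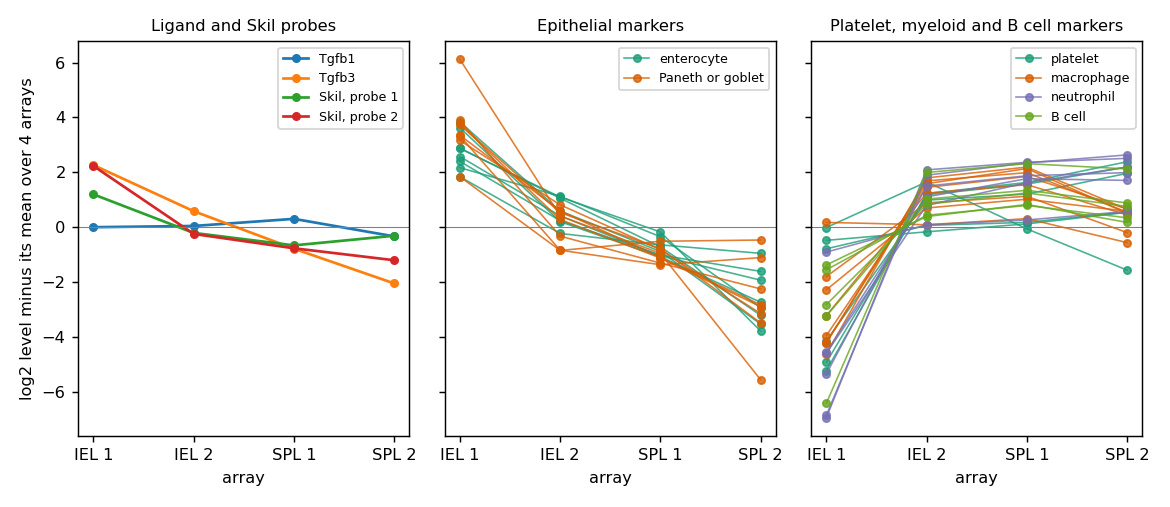
Level on each array minus the mean over the 4 arrays (log2), for the Tgfb1, Tgfb3 and Skil probes (left), for epithelial markers (middle), and for platelet, macrophage, neutrophil and B cell markers (right), 1 line per tested probe. Tgfb3 falls from IEL 1 to SPL 2 as Krt8 and most other epithelial markers do, Tgfb1 spreads over 0.64 log2 units, and most markers on the right are lowest on IEL 1.

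Among the receptors, no probe gave a difference that passed the test, and different probes of a gene disagreed in sign. Tgfbr2, the receptor that binds the ligand first, was read by 3 probes. The first, A_51_P450573 (chr9:115997155-115997214, minus strand), had levels of 4.92 and 5.004 on the IEL arrays and of 4.98 and 5.39 on the SPL arrays. Its groups overlapped, with a fitted difference of -0.22 and a 95% interval from -0.94 to 0.48 (limma, adjusted p = 0.741), and slides 1 and 2 gave -0.47 and 0.02. The second, whose sequence is given above, had levels of -2.08 and -2.09 in IELs and of -2.17 and -2.52 in SPLs, and its fitted difference was 0.26 with a 95% interval from -0.42 to 0.94 (0.44 on slide 1, 0.08 on slide 2 and -0.46 after normexp). The intensities of this probe were low, at 73.7, 102.0, 106.7 and 105.3 units on IEL 1, IEL 2, SPL 1 and SPL 2.

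The third Tgfbr2 probe, A_52_P3811 (chr9:116039845-116039904), was designed on a separate cDNA entry assigned to the gene. It read 31.7 units on IEL 2, 36.8 on SPL 1 and 49.7 on SPL 2, and at 5.74 units it was not well above background on IEL 1. The levels were -3.78 on IEL 2 and -3.71 and -3.61 on the SPL arrays, and IEL 1 has only a bound below them. On slide 2, where both arrays measured it, the log2 difference was -0.07. No size is given for the groups, since the probe met the filter only through the SPL arrays, where it was higher, and the adjusted p was 0.634 (limma). Its sign turned when normexp was fitted without spots far below their local background, to 0.03.

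Tgfbr1, the kinase that phosphorylates Smad2 and Smad3, was read by 2 probes. A_51_P280137, whose 60 bases are placed over a longer stretch (chr4:47419898-47423556), as across a splice junction, had levels of -2.27 and -2.62 in IELs and of -2.87 and -3.28 in SPLs. Both IEL arrays were higher, by a fitted 0.63 with a standard error of 0.29 (limma, adjusted p = 0.634), by 1.01 on slide 1 and by 0.25 on slide 2. Before scaling, however, its intensities hardly differed, at 64.5, 70.8, 65.8 and 62.2 units on IEL 1, IEL 2, SPL 1 and SPL 2, and the difference was -0.57 after normexp. The other probe, A_52_P4538 (chr4:47427421-47427480), had intensities from 403.0 to 991.3 units. Its levels were 0.37 and 0.63 in IELs and 0.53 and 0.71 in SPLs, which overlapped, and its fitted difference was -0.12 with a 95% interval from -0.79 to 0.54 (-0.34 on slide 1 and 0.10 on slide 2).

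The co-receptor Tgfbr3 was also dim. Its probe A_51_P255899 (chr5:107537905-107537964, minus strand) read 46.0, 42.4, 34.9 and 44.0 units on IEL 1, IEL 2, SPL 1 and SPL 2. The levels were -2.76 and -3.36 in IELs and -3.78 on each SPL array, so that both IEL arrays were higher, by a fitted 0.72 with a standard error of 0.30 (limma, adjusted p = 0.634). It was 1.02 on slide 1 and 0.42 on slide 2, and after normexp the difference was -0.69. For the dim probes of Tgfbr1, Tgfbr2 and Tgfbr3, the direction thus depended on how the background was taken off. The turn was not limited to dim probes. The brighter Tgfbr1 probe and the first Tgfbr2 probe turned as well, to 0.09 and 0.15 after normexp. In that setting the median over all tested probes was -0.38.

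For the transducers, the fitted differences lay between -0.36 and -0.12, and none passed the test. For Smad2, which Tgfbr1 phosphorylates, levels were 1.37 and 1.22 in IELs and 1.34 and 1.78 in SPLs (probe A_52_P397280, chromosome 18), with a fitted difference of -0.26 and a 95% interval from -0.998 to 0.47. Its groups overlapped, and the difference was -0.40 on slide 1 and -0.12 on slide 2.

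Smad3, the other such transducer, was read by A_52_P352277 (chr9:63495131-63495190, minus strand) and by A_51_P441022 (chr9:63497492-63497551, minus strand). The former had levels of 0.56 and 0.79 in IELs and of 0.94 and 0.84 in SPLs, both IEL arrays being lower, with a fitted difference of -0.21 and a 95% interval from -0.85 to 0.43. The latter had levels of -2.99 and -2.67 in IELs and of -2.50 and -2.92 in SPLs, which overlapped, and a fitted difference of -0.12. Within a slide, the log2 differences of both probes lay between -0.28 and -0.07.

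Smad4, the partner that all receptor-activated SMADs share, was lower on both IEL arrays with both of its probes on chromosome 18. The levels of A_51_P444740 were 2.13 and 2.22 in IELs and 2.38 and 2.70 in SPLs, with a fitted difference of -0.36 and a standard error of 0.25 (limma, adjusted p = 0.636). The levels of A_52_P611867 were 3.61 and 3.59 in IELs and 3.67 and 3.98 in SPLs, with a fitted difference of -0.23 and a standard error of 0.25 (adjusted p = 0.723). On slide 1 these differences were -0.57 and -0.37, on slide 2 they were -0.16 and -0.08, and after normexp they were 0.04 and 0.23. The 95% interval of the former reached down to -1.03, so that equal levels were not shown.

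**Figure D3:**
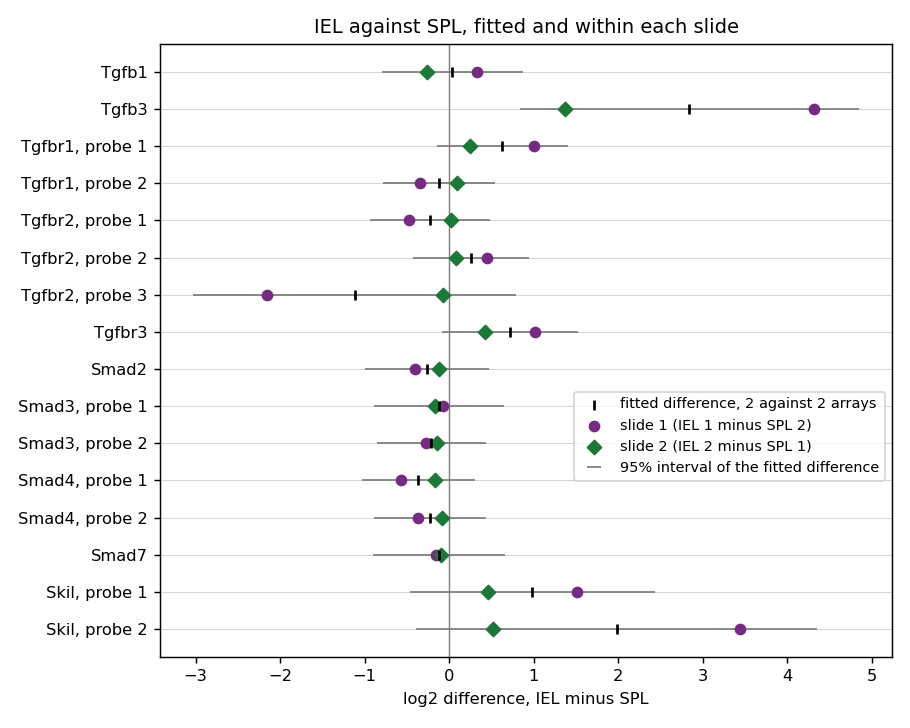
Log2 difference between IELs and SPLs for each of the 16 probes, as fitted over 2 against 2 arrays (black ticks, with the 95% interval as a grey line), on slide 1 (circles) and on slide 2 (diamonds). Only the interval of Tgfb3, from 0.83 to 4.85, lies off 0, and slide 1 gave the larger difference for Tgfb3 and both Skil probes. For the third Tgfbr2 probe, the fitted and slide 1 points rest on an IEL 1 value that was not well above background.

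The inhibitors Smad7 and Skil were read by 3 probes. Smad7, which blocks Tgfbr1 and is itself induced by TGF-β, had levels of 3.10 and 2.74 in IELs and of 2.84 and 3.26 in SPLs (A_51_P403636, chromosome 18), and the groups overlapped. Its fitted difference was -0.12 with a 95% interval from -0.91 to 0.66 (limma, adjusted p = 0.872), and slides 1 and 2 gave -0.15 and -0.09. Skil, whose product SnoN binds SMADs and recruits co-repressors, was higher on both IEL arrays with both of its probes. The probe in coding sequence shown above, A_52_P597461, read 1786, 446.6, 342.8 and 319.6 units on IEL 1, IEL 2, SPL 1 and SPL 2, or levels of 2.52, 0.04, -0.48 and -0.92. The other, A_51_P118132 (chr3:31021203-31021262, plus strand), had levels of 4.29, 2.88, 2.43 and 2.78 in that order. With both probes, IEL 1 stood apart while IEL 2 was close to the SPL arrays.

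The fitted differences of Skil were 1.98 with a standard error of 0.88 (3.95-fold; limma, adjusted p = 0.634) and 0.98 with a standard error of 0.54 (1.98-fold; limma, adjusted p = 0.634). Slide 1 gave 3.44 and 1.51, while slide 2 gave 0.52 and 0.45. Without IEL 1 they were 0.74 and 0.28. The IEL samples differed from each other by 2.48 and 1.41 log2 units, which was more than the difference between the groups. The epithelial markers given above were highest on IEL 1 too, as were the T cell effector genes named with Tgfb3. The part of epithelial RNA in the Skil difference was not tested. The related co-repressor Ski had levels of 4.04, 3.61, 3.51 and 3.75, with a fitted difference of 0.19.

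Without IEL 2, which stood close to SPL 1, 5 of the 16 probes passed the adjusted test, of which 4 were higher in IELs (against 8.53% of all tested probes) and 1 was lower (against 11.0%). Tgfb3 was then higher by 3.68 log2 units (limma, adjusted p = 0.0182), Skil by 3.22 and 1.69 (adjusted p = 0.00732 and 0.0212), and Tgfbr3 by 1.02 (adjusted p = 0.0471). The 1 lower call is the third Tgfbr2 probe (limma, adjusted p = 0.0105). It rests on an IEL 1 value below detection, in a probe that met the filter only through the SPL arrays, and it supports no statement here. This fit rests on 1 IEL array, which is assumed to vary as the SPL arrays do, and 5441 of all probes passed it. The other 11 probes did not pass it, with log2 differences of 0.02 for Tgfb1, 0.80 and -0.25 for Tgfbr1, and -0.27 and 0.26 for the first and second Tgfbr2 probes. Those of the Smad genes lay between -0.41 and 0.06.

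In the pathway beyond these members, 44 of 45 listed genes were on the array and 38 were tested, each by its brightest tested probe, which 34 of them had well above background on IEL 1 and 38 on each other array. None passed the adjusted test (limma). At an unadjusted p under 0.05, 2 were higher (Furin and Acvr2a) and 0 were lower, against 4.63% and 1.10% of all tested probes, and the median log2 difference was 0.03. Of the genes that store, cut or release the ligand, 9 could be tested, and 5 of them were higher and 0 lower on both IEL arrays (24.4% and 24.6% of all tested probes), with a median of 0.57. Furin, the protease that cuts the TGF-β precursor, had levels of 5.21, 3.81, 3.04 and 2.53 on IEL 1, IEL 2, SPL 1 and SPL 2, again in the order of Tgfb3. Its fitted difference was 1.72 with a standard error of 0.55 (limma, 2.68 on slide 1 and 0.77 on slide 2). Itgb8, whose αvβ8 integrin releases active TGF-β, had levels of -3.44 and -3.08 in IELs and of -3.52 and -5.66 in SPLs. It was dim, at 28.66, 51.25, 41.68 and 12 units on IEL 1, IEL 2, SPL 1 and SPL 2. Ltbp2, also among the 5, read 13.99 to 25.42 units. Nrros (Lrrc33 on the array), which tethers latent TGF-β on myeloid cells, was at 2.82, 4.46, 4.65 and 4.43, lowest on IEL 1 as were 7 of the 8 macrophage markers. The part of myeloid RNA in this was not tested.

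Among 9 tested receptors for other ligands of the superfamily, 2 were higher and 5 were lower on both IEL arrays (24.4% and 24.6% of all), with a median of -0.38. The 5 include Acvrl1 and Bmpr1a, which were not well above background on IEL 1 and have only a bound there. Both met the filter only through the SPL arrays, where they were higher, so the count of lower receptors rests in part on them. The activin receptor Acvr2a was highest in the fit, with levels of 0.12, -2.55, -3.82 and -5.26 and a difference of 3.33 (standard error 1.05), which was 5.38 on slide 1 and 1.27 on slide 2. Eng, the co-receptor endoglin of endothelium and macrophages, was lowest, with levels of -4.42, -0.58, -0.29 and -0.14 and a difference of -2.29 (standard error 1.32), of which slide 2 showed -0.29. Of the BMP-activated SMADs, Smad1 and Smad5 were lower on both IEL arrays, by fitted log2 differences of -0.73 and -0.52, and on slide 2 by -0.25 and -0.07. The inhibitory Smad6 was not well above background on IEL 1, with levels of -4.03 on IEL 2 and of -4.76 and -5.79 in SPLs. Of 17 tested intracellular regulators, 2 were higher and 4 were lower on both IEL arrays, with a median of 0.01. The shares of all tested probes, 24.4% and 24.6%, correspond to about 4 genes each way. Several kept one level over the 4 arrays, such as the ubiquitin ligase Smurf1 at -0.32, -0.30, -0.37 and -0.35. The lowest was Fkbp1a, whose product keeps the resting Tgfbr1 inactive, at -0.03, 0.56, 0.73 and 0.65 with a fitted difference of -0.42. Pmepa1, a TGF-β-induced inhibitor that binds SMADs, differed most, with levels of 1.25, -0.54, -1.13 and -1.88 and a fitted difference of 1.86 (standard error 0.69), with 3.12 on slide 1 and 0.59 on slide 2.

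**Figure D4:**
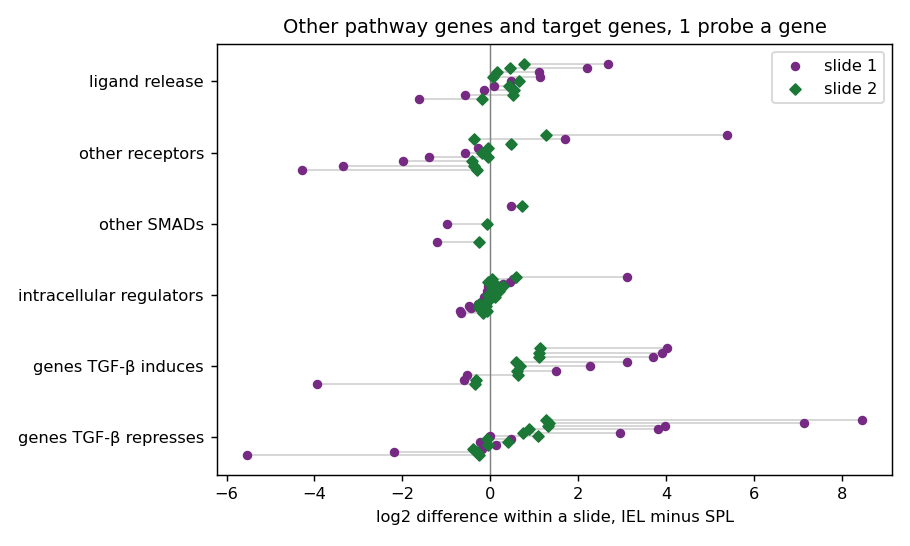
Log2 difference between IELs and SPLs within slide 1 (circles) and within slide 2 (diamonds) for each tested gene of 6 lists, 1 probe per gene, with a line joining both values of a gene. The regulators lie near 0 apart from Pmepa1, and differences are larger on slide 1 than on slide 2 for most genes far from 0, with medians of 2.27 and 0.64 for the genes TGF-β induces.

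Genes that TGF-β is known to induce in T cells or other cells were listed as well. Of 9 tested, 6 were higher on both IEL arrays and 1 was lower (24.4% and 24.6% of all tested probes), with a median of 1.47. None passed the adjusted test (limma), and 5 were higher at an unadjusted p under 0.05 (4.63% of all). The list was chosen with earlier results of these data known, so these counts beside the shares are no test of it. Itgae, the gene for CD103, had levels of 6.87 and 5.27 in IELs and of 4.16 and 3.16 in SPLs. Its fitted difference was 2.41 with a standard error of 0.68 (limma), with 3.71 on slide 1 and 1.11 on slide 2. Cdkn1a, an inhibitor of the cell cycle, was highest in the fit, with levels of 3.08, 0.87, -0.27 and -0.95 and a difference of 2.59 (standard error 0.82), with 4.03 on slide 1 and 1.14 on slide 2. Ldlrad4, which like Pmepa1 restrains SMAD activation, was at 4.77, 2.85, 1.74 and 0.85. The lowest was Tgfbi, an extracellular matrix gene that macrophages also make, with levels of -3.45, 0.31, 0.66 and 0.50 and a fitted difference of -2.15, which was -3.95 on slide 1 and -0.36 on slide 2. Itgae, Cdkn1a and Ldlrad4 thus stood in the order of the enterocyte markers, which Gzmb and Tbx21 below also shared. Tgfbi was lowest on IEL 1 as most macrophage markers were. The part of other cells in these differences was not tested.

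Genes that TGF-β is known to restrain in T cells gave no single direction. Of 12 tested, 5 were higher and 2 lower on both IEL arrays, with a median of 0.36, against 24.4% and 24.6% of all tested probes or about 3 of 12 each way. At an unadjusted p under 0.05, 4 were higher (4.63% of all). The 5 code for effector proteins (Gzma, Gzmb, Fasl and Ifng) and for a regulator of them. The 2 lower genes were Myc and S1pr1. Gzmb, a granule protease of cytotoxic cells, had levels of 8.56, 6.79, 5.51 and 0.10 on IEL 1, IEL 2, SPL 1 and SPL 2, and a fitted difference of 4.87 (standard error 1.94), with 8.45 on slide 1 and 1.28 on slide 2. Tbx21, the gene for the transcription factor T-bet, was at 5.40, 4.01, 3.12 and 1.60, with a difference of 2.35 (standard error 0.74), with 3.81 on slide 1 and 0.89 on slide 2. The lowest was S1pr1, the receptor by which T cells leave tissues, with levels of -0.45, 4.49, 4.75 and 5.08 and a difference of -2.89. Nearly all of it came from slide 1, with a log2 difference of -5.53 there and of -0.26 on slide 2.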

How the data were processed

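Total RNA was amplified and labelled with 1 dye by the authors, and each of the 4 samples was hybridized to 1 Agilent array. Intensity values, deposited as scanner files, were made by Agilent Feature Extraction, which subtracted a background fitted within each array and did not normalize between arrays (version 10.7.1.1 per the labels, 10.7.3.1 per the file headers). A log2 table deposited by the authors, equalized between arrays by quantiles as judged from its values, served as an alternative. The paper's methods name another array type.

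The processed intensity was divided by the 75th percentile of its array over 43379 spots that are not controls, and its log2 was taken. Spots with an outlier mark were left out (98 to 179 per array), and repeat spots were averaged. Testing required values on all 4 arrays and a signal well above background on both arrays of at least 1 group. This left 27911 of 41174 probes, some of which met it through 1 group only. Between 63.6% and 69.6% of probes were well above background on each array, and 0 spots were saturated. The number of arrays limits the precision. The comparison used R 4.3.3 with limma 3.58.1, after the scanner files were read by data.table, version 1.17.8. The tests were two-sided and moderated, with 2 residual degrees of freedom and a Benjamini-Hochberg threshold of 0.05. Symbols and mm9 positions are those of the arrays' annotation, and no sequence was read by position.

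No pairing by replicate number was used (only 2 pairs, whose deviations from the group means had a correlation of -0.025). The members and the lists of pathway genes, TGF-β-regulated genes and cell type markers were chosen with earlier results of these data known. All 16 member probes are named. From most lists, up to 4 genes are named, with the highest and lowest fitted difference among them for the pathway and target lists, each by its brightest tested probe. Of the genes that TGF-β restrains, more are named, among them all that were higher or lower on both IEL arrays. Promoter sequences of Tgfb3 and Skil and protein sequences were not used here. Alternatives were other scalings, 2 normexp background corrections with an offset of 50, the deposited log2 values, other filters on dim probes, marked spots kept, an intensity trend, the methods' unpaired test, a block for the replicate number or for the slide, and each sample left out.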

Additional observations from a re-analysis of the deposited data

How the results depend on the processing

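No probe passed the adjusted test of limma in any setting that kept both IEL arrays (at an unadjusted p under 0.05, 1600 probes did, 819 by the methods' unpaired test, 1208 with the slide as a block and 2746 without a filter). Leaving out 1 array gave 0 to 5441 probes and 0 to 5 members, all from leaving out IEL 2. With the replicate block, 0 probes passed and 2131 did at an unadjusted p under 0.05. The median of the members stayed at -0.121, as it must, since each block holds 1 array of each group and cannot move a fitted difference. The numbers share only a label, and the block changed no call. The median log2 difference of the members, -0.121, was 0.064 with normexp (-0.380 over all probes), 0.003 when the normexp fit left out spots lying over 20 units under their local background (0.152 over all probes), and -0.084 to 0.023 with 1 array left out. Tgfb3, both Skil probes and the Smad3 probe A_52_P352277 kept their direction in every setting run, Tgfb3 with differences from 0.96 to 3.68. The blocks, the intensity trend, the unpaired test and the filters on dim probes could not turn a direction, since they leave the difference of a probe as it is. The signs that turned belonged to small or dim differences. After normexp they were 0.027 (Smad2), 0.040 and 0.234 (Smad4), 0.278 (Smad7), -0.570 and 0.088 (Tgfbr1), 0.148 and -0.462 (the first 2 Tgfbr2 probes) and -0.688 (Tgfbr3). Without the deep spots they were 0.171 (Smad3, A_51_P441022), -0.020 (Tgfb1) and 0.026 (the third Tgfbr2 probe), and with median scaling -0.017 (Tgfb1). With 1 array left out, the values of probes that turned were -0.331 to 0.092 (Smad3, A_51_P441022), -0.332 to 0.086 (Smad7), -0.281 to 0.357 (Tgfb1) and -0.252 to 0.006 (Tgfbr1, A_52_P4538). The cause was not tested. The third Tgfbr2 probe has no value where every array had to be well above background. Probes near background set the limit of what can be told for Tgfbr1, Tgfbr3 and Smad6.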
